A study of Rattus norvegicus with 2 samples.

Results

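Apoptosis genes were examined in the rat adrenal medulla, the tissue that releases epinephrine when blood glucose falls. The set holds 37 gene symbols of the BCL2 family, the caspases, the apoptosome, the inhibitor of apoptosis proteins and the death receptor complex. They were listed by function as a possible outcome of a prolonged unfolded protein response (UPR), with earlier results of these data known. Of the 37 symbols, 34 were measured by 53 probe sets that name a single gene, out of 14217 genes and 31042 probe sets on the array. Bax and Cycs are read only by probe sets that name several genes, and no probe set names Pmaip1, so these 3 genes are not reported.

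The groups were 2RS30 and 2RH30, both of Sprague-Dawley rats, which the methods describe as adult males with vascular catheters. The 2RH30 rats received human insulin intraperitoneally at a dose of 2 IU/kg 2 times daily on 3 days, and the 2RS30 rats received saline. Per the methods, only 1 injection was given on day 3. After an overnight fast all rats, saline controls included, went through a hyperinsulinemic-hypoglycemic clamp on day 4, with glucose held between 40 and 50 mg/dL, and tissue was taken 30 min after the target was reached. Both pools therefore come from hypoglycemic rats, and the comparison is of recurrent against acute hypoglycemia. RNA of the left medulla from 6 rats was pooled for each group and read on 1 Affymetrix Rat Genome array, so no difference below has a replicate check or a p-value. In such whole tissue RNA, fewer cells of a type and less RNA per cell cannot be told apart.

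Apoptosis runs along a mitochondrial and a death receptor pathway. In the mitochondrial pathway, BH3-only proteins sense damage and act on anti-apoptotic BCL2 proteins or directly on the pore-forming effectors, after which cytochrome c leaves mitochondria, joins APAF1 in the apoptosome and activates caspase-9. In the death receptor pathway, adaptor proteins recruit caspase-8 to receptors such as FAS. A UPR that is not resolved feeds into both, mainly through the transcription factor CHOP and its effects on BCL2 family genes, and in rodents caspase-12 lies at the ER membrane.

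Caspase genes of the inflammatory and ER group lie side by side on rat chromosome 8 in the order Casp1, Casp4 and Casp12, with no other protein-coding gene annotated between them. The 250 bases before the annotated starts of Casp12 and Casp1 are shown because both hold the same 10 bases, GAAACTGAAA, close to the start on the opposite strand (sequences from RefSeq, GRCr8). These bases fit the pattern GAAANNGAAA, which resembles the element bound by interferon regulatory factors, and capitals mark them. The windows are chr8:10926938-10927187 for Casp12 and chr8:10872580-10872829 for Casp1, both on the plus strand. The match lies 38 to 29 bases before the start of Casp12 and 28 to 19 bases before that of Casp1.
Casp12: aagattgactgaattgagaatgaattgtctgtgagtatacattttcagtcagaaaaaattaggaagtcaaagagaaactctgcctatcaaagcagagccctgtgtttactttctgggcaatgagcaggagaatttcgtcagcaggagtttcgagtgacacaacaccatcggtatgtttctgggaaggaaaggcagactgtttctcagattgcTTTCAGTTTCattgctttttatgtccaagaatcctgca
Casp1: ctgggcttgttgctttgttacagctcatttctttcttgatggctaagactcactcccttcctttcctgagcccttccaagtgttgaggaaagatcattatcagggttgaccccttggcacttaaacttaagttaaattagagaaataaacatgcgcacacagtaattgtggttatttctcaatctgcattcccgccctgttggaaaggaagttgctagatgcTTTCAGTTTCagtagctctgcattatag

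Such windows were given for 26 of the 37 symbols, 29 windows in all, and were searched on both strands. The pattern GAAANNGAAA was found in these 2 members, against 3.41% of 33469 windows of the same length over all genes. The ER stress element, CCAAT followed by 9 bases and CCACG, and the UPR element TGACGTGG were each found in 0 of the 29 windows, against 0.0657% and 0.52% of all windows. The CHOP-ATF4 pattern TGATGNAA was found in windows of Bcl2 and Bcl2l1, against 3.4% of all. In Bcl2l1 the 3 matches are 2 sites, since its alternative starts give windows that overlap. In Bcl2 the match lies 244 to 237 bases before the start, in the window chr13:23366901-23367150 on the minus strand, shown here with the match in capitals because Bcl2 is a classical target of CHOP. A match describes letters and not a bound site. No matches of different patterns overlapped in any member.
Bcl2: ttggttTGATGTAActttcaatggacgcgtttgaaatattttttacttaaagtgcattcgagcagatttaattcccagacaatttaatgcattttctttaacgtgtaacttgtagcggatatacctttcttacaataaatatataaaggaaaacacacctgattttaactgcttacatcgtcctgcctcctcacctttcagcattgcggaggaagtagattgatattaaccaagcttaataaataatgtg

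Over the whole set, 8 of the 34 measured genes (23.5%) were 2-fold or more above 2RS30 in the 2RH30 pool, namely Casp4, Apaf1, Bcl2l2, Casp12, Bad, Tradd, Bmf and Diablo. Only Casp8 (2.94%) was 2-fold or more lower. Of all 14217 genes, 11.5% were higher and 9.62% lower by that much. The brightest probe set, by its mean over both arrays, stands for a gene, and all values and differences are on the log2 scale, 2RH30 minus 2RS30. The median difference was 0.37 over the 34 genes and 0.11 over all genes, and 23 of the 34 (67.6%) lay above 0, against 56.1% of all genes. Casp6 at 0.99, Mcl1 at 0.98, Htra2 at 0.96 and Bak1 at 0.95 lay just inside the 2-fold limit. At 1.5-fold, 15 genes were higher and 5 lower (25.9% and 19.4% of all genes), and at 3-fold 1 was higher, Casp4, and 0 were lower (3.05% and 3.21% of all genes). Counted by probe sets, 12 of the 53 were 2-fold or more higher and 4 lower, against 10.4% and 12.1% of all probe sets.

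Part of this moves with signal level. On these arrays the median difference of probe sets, in 20 bins of level, was -0.38 in the lowest bin and 0.49 in the highest. Apart from this trend, the spiked bioB control differed by -3.25 on average, far beyond the -0.38 of the lowest bin. Other spiked controls were not examined, and the cause of this difference between the arrays was not tested. Probe sets under the median of both arrays are called dim. They read 6 of the 34 genes (17.6%), against 30.6% of all genes, so the apoptosis genes sit somewhat higher in signal than the array at large. Among genes that were not dim, 7 of 28 were 2-fold or more higher and 1 lower, against 15.0% and 7.63% of all such genes. A gene passes this filter through either array, so the count depends in part on the difference itself. Casp4, Bad, Casp12, Diablo and Apaf1 were under the 2RS30 median of 5.50 and passed through 2RH30, and Casp8 passed through 2RS30. After the trend on level was subtracted with a lowess curve, called level-adjusted below, 7 of the 34 (20.6%) were 2-fold or more higher and 2 (5.88%) lower, against 8.95% and 9.31% of all genes. Diablo then left the higher genes and Bik joined Casp8 among the lower. The level-adjusted median was 0.16 over the 34 genes and 0.02 over all genes, and 55.9% of the 34 against 51.2% of all lay above 0.

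**Figure D1:**
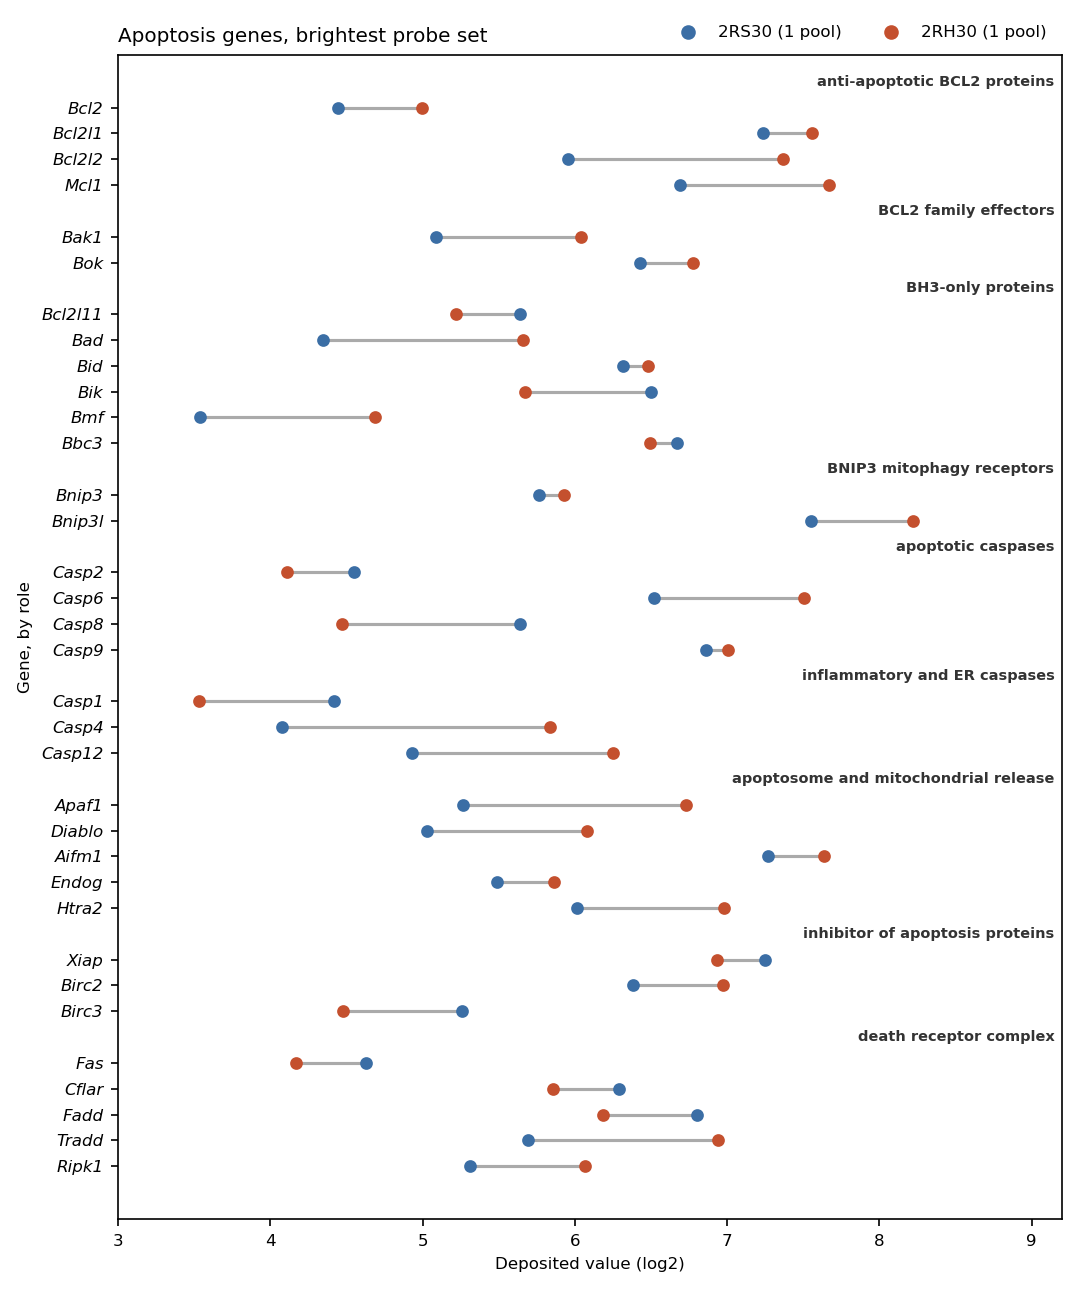
Deposited value (log2, horizontal axis) of each of the 34 measured apoptosis genes (vertical axis, grouped by role) in the 2RS30 pool (blue) and the 2RH30 pool (red), read from the brightest probe set of the gene. In 23 genes the red point lies to the right, with the longest line for Casp4 (4.08 to 5.84), and in 11 to the left, with the longest line for Casp8 (5.64 to 4.47).

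**Figure D2:**
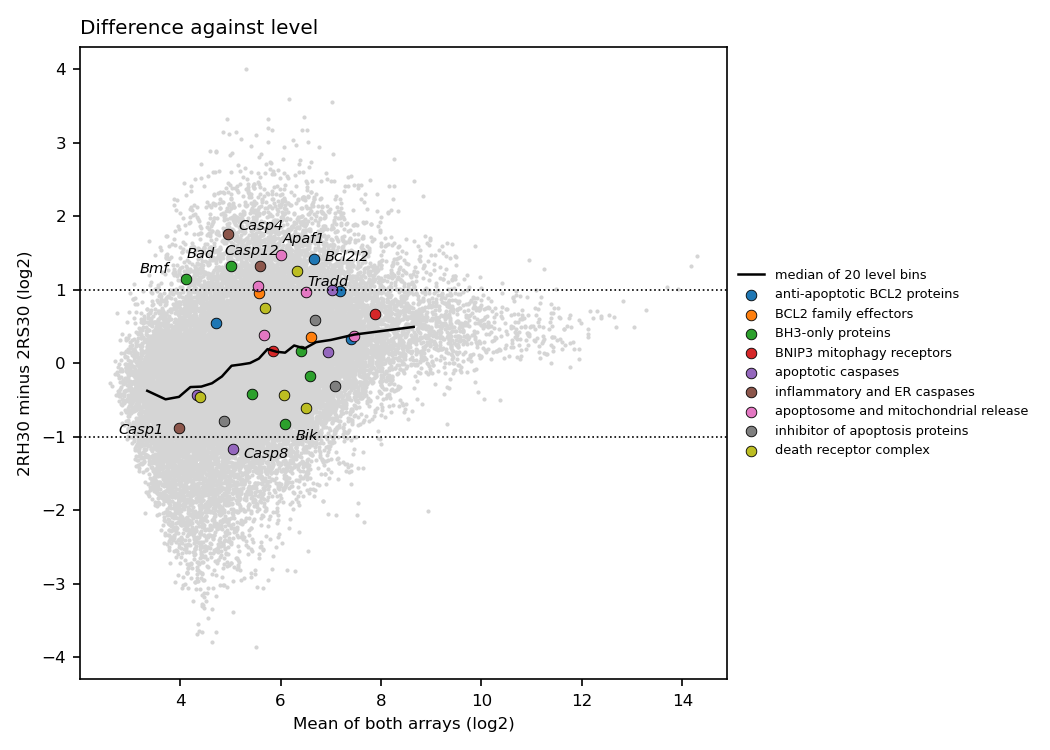
Difference 2RH30 minus 2RS30 (log2, vertical axis) against the mean of both arrays (log2, horizontal axis) for all 31042 probe sets (grey), with the 34 apoptosis genes coloured by role and the median of 20 level bins as a black line. Dotted lines mark 2-fold. The line starts at -0.38 and ends at 0.49, and 8 coloured points lie above the upper dotted line and 1 below the lower.

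Among the inflammatory and ER caspases, Casp4 and Casp12 were higher in 2RH30 and their neighbour Casp1 was lower. Casp4, which in rodents encodes the caspase-11 that senses cytosolic lipopolysaccharide, read 4.08 in 2RS30 and 5.84 in 2RH30. Its difference of 1.76 (level-adjusted 1.89), 3.39-fold, was the highest of the 34 genes. Casp12, the ER caspase, read 4.93 and 6.25, a difference of 1.33 (level-adjusted 1.23). Casp1, the interleukin-1 beta converting enzyme, was dim on both arrays and read 4.42 and 3.53, a difference of -0.89 (level-adjusted -0.44). So the neighbouring genes did not go one way, and neither did Casp1 and Casp12, which share the 10 bases shown above. No window of Casp4 was searched. Each of the 3 has 1 probe set, so no second reading of them was at hand.

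Caspases of this group are also expressed in macrophages, and macrophage markers differed between the pools. Of 14 macrophage and leukocyte markers, 6 (42.9%) were 2-fold or more higher in 2RH30 and 0 lower, against 11.5% and 9.62% of all genes. When level-adjusted, 5 (35.7%) were higher and 0 lower, against 8.95% and 9.31% of all genes. The summed level of the 14 markers was 10.33 in 2RS30 and 11.01 in 2RH30 on the log2 scale. Other marker lists rose as well in their sums, so the rise was not particular to macrophage markers. Adrenal cortex markers went from 14.33 to 15.00 and chromaffin cell markers from 12.92 to 13.43. Schwann and sustentacular markers went from 7.30 to 7.65 and endothelial markers from 8.42 to 8.64. Cd68 differed by 1.60 and C1qa by 2.71, but Csf1r by -0.77 and Ptprc by -0.71. The C1qa value in 2RS30, 3.06, is below the 5th percentile of its array, which leaves 2.71 uncertain in size. The part of macrophage RNA in the Casp4 and Casp12 values was not tested.

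The apoptotic caspases did not share a direction. Casp6, an executioner caspase, read 6.52 in 2RS30 and 7.51 in 2RH30, for a difference of 0.99 (level-adjusted 0.67). For other times, before the clamp and at its last sampling, the paper lists Casp6 as lower after recurrent hypoglycemia. Casp8, the initiator caspase of death receptors, read 5.64 and 4.47, a difference of -1.17 (level-adjusted -1.08), and its second, dim probe set gave -0.36. Both readings of Casp8 were thus lower in 2RH30, at different sizes. Casp2, an initiator linked to the PIDDosome, was dim and gave -0.44 (level-adjusted -0.08) in 1 probe set and 0.90 (level-adjusted 1.35) in the other, from 3.33 in 2RS30, below the 5th percentile of its array, 3.67.

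Casp9, the initiator caspase of the apoptosome, gave a different answer in each of its 3 probe sets. The brightest read 6.86 in 2RS30 and 7.01 in 2RH30, for a difference of 0.15 (level-adjusted -0.16). A second read 7.19 and 5.63, a difference of -1.56, and the third read 5.20 and 6.32, a difference of 1.12. None of the 3 was dim, and no single direction can be given for the gene. In 2RS30 alone the second read highest, so the choice of the brightest rests on the 2RH30 values.

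All 4 anti-apoptotic BCL2 genes of the set had a higher value in 2RH30 in their brightest probe sets. Bcl2l2, which encodes BCL-W, read 5.95 and 7.37, a difference of 1.42 (level-adjusted 1.15), and the other probe set gave 0.65 (level-adjusted 0.61). Mcl1, a short-lived survival protein, read 6.69 and 7.67, a difference of 0.98 (level-adjusted 0.63), and its other probe set read 6.32 and 7.58, a difference of 1.26 (level-adjusted 0.95). For these 2 genes, therefore, every probe set was higher in 2RH30 in both forms. Bcl2 itself was dim and read 4.44 and 4.99, a difference of 0.55 (level-adjusted 0.77). Bcl2l1, which encodes BCL-XL, gave 0.33 (level-adjusted -0.05) with the brightest probe set, -0.56 with the second and 1.02 with the third, so its direction depends on the probe set. The median over the 4 genes was 0.76 (level-adjusted 0.70). Bcl2a1 and Bcl2l10 were listed apart, among 7 other genes listed with the BCL2 family, of which 4 lay above 0 and 3 below. Those below include Bcl10, at -0.90 (level-adjusted -0.83), which is not a BCL2 family protein despite its name. Bcl2a1, which was dim, differed by 0.03 and Bcl2l10 by -2.68.

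The measured effectors and mitophagy receptors of the family were above 0 too as deposited in every probe set. Bak1, which forms pores in the outer mitochondrial membrane, read 5.09 in 2RS30 and 6.04 in 2RH30, for a difference of 0.95 (level-adjusted 0.86). Bok, a relative of BAX and BAK, differed by 0.35 and 0.04 in its 2 probe sets (level-adjusted 0.09 and -0.15). Bnip3l, a receptor for the removal of mitochondria, read 7.55 and 8.22, and its 2 probe sets gave 0.67 and 0.69, the closest match between readings among these genes (level-adjusted 0.22 and 0.48). Bnip3, its relative and a hypoxia-induced gene, read 5.76 and 5.93, a difference of 0.16 (level-adjusted 0.01).

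BH3-only genes went both ways, with 3 of the 6 measured above 0 and 3 below. Bad, the BH3-only protein that survival kinases inactivate by phosphorylation, read 4.35 in 2RS30 and 5.66 in 2RH30, for a difference of 1.31 (level-adjusted 1.43). Bmf, which is tied to the cytoskeleton, read 3.54 and 4.69, a difference of 1.15 (level-adjusted 1.57). Its probe set was dim, and the 2RS30 value is also below the 5th percentile of its array, so the size is uncertain. Bik, a BH3-only protein of the ER membrane, had the opposite sign, with 6.50 and 5.67, a difference of -0.82 (level-adjusted -1.01).

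The measured BH3-only genes most often linked to the UPR were not among those 2-fold higher in their brightest probe sets. Pmaip1, another BH3-only gene, was not measured. Bcl2l11, which encodes the CHOP target BIM, read 5.64 and 5.22, a difference of -0.42 (level-adjusted -0.46), and its dim probe sets gave -0.56 and 0.07. Bbc3, which encodes PUMA, read 6.67 and 6.50, a difference of -0.17 (level-adjusted -0.43). Bid, which caspase-8 cleaves to link both pathways, read 6.31 and 6.48 with its brightest probe set, a difference of 0.16 (level-adjusted -0.06). The other probe set of Bid read 4.97 and 6.56, a difference of 1.59 (level-adjusted 1.45), so the size of its difference depends on the probe set.

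Genes of the apoptosome and of proteins released from mitochondria were all above 0 as deposited in their brightest probe sets, with a median of 0.96 over 5 genes (level-adjusted 0.72, with 4 above 0). Diablo, an antagonist of IAPs, read 5.03 and 6.08, a difference of 1.05 (level-adjusted 0.96). Htra2, a mitochondrial protease with the same property, read 6.01 and 6.98, a difference of 0.96 (level-adjusted 0.72). Aifm1 and Endog, which act on DNA without caspases, read 7.27 and 5.49 in 2RS30 and 7.64 and 5.86 in 2RH30, so they differed by 0.37 and 0.38 (level-adjusted -0.01 and 0.26). Apaf1, the scaffold of the apoptosome, had the widest disagreement of any of the 34 genes. Its brightest probe set read 5.27 and 6.73, a difference of 1.46, whereas the other, which was dim, read 5.39 and 3.52, a difference of -1.87 (level-adjusted 1.29 and -1.55). The mean over both was -0.20, so Apaf1 counts as higher only in its brightest probe set. In 2RS30 the other probe set read higher, so the 2RH30 values decided which was brightest and which was dim.

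The IAP genes, which encode inhibitors of caspases or of the signals above them, lay mostly below 0. Xiap, the direct caspase inhibitor, read 7.25 in 2RS30 and 6.93 in 2RH30, for a difference of -0.32 (level-adjusted -0.65), and the other probe set gave -0.09. The adjacent genes Birc2 and Birc3, ubiquitin ligases of TNF receptor signalling, had opposite signs. Birc2 read 6.38 and 6.97, a difference of 0.59 (level-adjusted 0.32), and Birc3, which was dim, read 5.26 and 4.48, a difference of -0.78 (level-adjusted -0.62).

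The 5 genes of the death receptor complex went both ways, with 2 above 0 and 3 below in their brightest probe sets. Fas was dim in all 3 probe sets, which gave -0.46, -1.13 and -0.35 (level-adjusted -0.12, -0.79 and 0.08). Fadd, the adaptor of FAS, read 6.80 and 6.19, a difference of -0.61 (level-adjusted -0.85). Cflar, which encodes the caspase-8 inhibitor FLIP and lies next to Casp8 on the chromosome, read 6.29 and 5.86, a difference of -0.43 (level-adjusted -0.62), and the other probe set gave -0.36. With Casp8, each of the 8 probe sets of these 4 genes was below 0 as deposited, and 7 were when level-adjusted. Those of Fas and the second ones of Casp8 and Cflar were dim, and the lowest level bin had a median of -0.38. Of all 14217 genes, 6231 lay below 0 as deposited and 6944 when level-adjusted. Tradd, the adaptor of the TNF receptor, read 5.69 and 6.94, a difference of 1.25 (level-adjusted 1.04). Ripk1, its kinase partner, read 5.31 and 6.06, a difference of 0.75 (level-adjusted 0.63), but its other, dim probe set gave -0.49, so its direction depends on the probe set. Other genes of TNF receptor signalling lay on both sides of 0. Below it were Traf2 at -0.46, Cyld at -0.22, and Tnf at -0.38 and Tnfaip3 at -0.50, both dim. Above it were the receptors Tnfrsf1a at 0.11 (level-adjusted -0.19) and Tnfrsf1b, which was dim, at 0.38, and Traf1 at 0.34 (level-adjusted -0.12). Faslg, the ligand of FAS, was dim and lay above 0, at 0.48 (level-adjusted 0.92), unlike its receptor. Casp8 was set beside Fas, Fadd and Cflar after the values were seen.

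Probe sets of a gene are the nearest thing to a repeat reading on these arrays, although they share the RNA pool. Of the 34 genes, 19 had 1 probe set, 11 had 2 and 4 had 3. Among the 15 genes with several, all readings had 1 sign in 9 (60%) and both signs in 6, namely Bcl2l1, Bcl2l11, Casp2, Casp9, Apaf1 and Ripk1. Over all genes with several probe sets, 48.7% of 4525 had 1 sign, and 53.6% of 2539 where dim probe sets were left out. Within a gene, readings had an SD of 0.87 over the 15 genes and 0.82 over those 2539 genes, not far below the 2-fold limit of 1. Of the 8 genes higher by 2-fold or more, only Bcl2l2 and Apaf1 had a second probe set, which was of the same sign in Bcl2l2 and of the opposite sign in Apaf1.

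**Figure D3:**
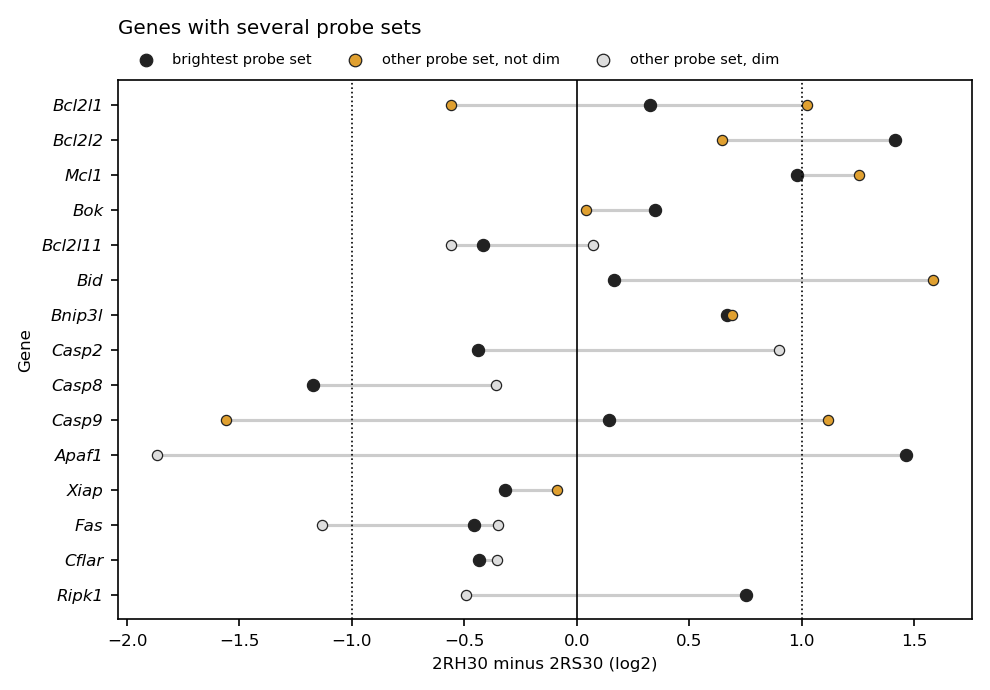
Difference 2RH30 minus 2RS30 (log2, horizontal axis) for every probe set of the 15 apoptosis genes with more than 1 (vertical axis), with the brightest probe set in black, others in orange and dim others in grey. Dotted lines mark 2-fold. The readings spread from -1.87 to 1.46 in Apaf1 and from -1.56 to 1.12 in Casp9, while those of Bnip3l, 0.67 and 0.69, nearly coincide.

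Other genes of the cell death pathway were taken from lists and read the same way. Of 18 measured genes that connect ER stress to apoptosis, 2 (11.1%) were 2-fold or more higher and 0 lower. Of all genes, 11.5% were higher and 9.62% lower. When level-adjusted, 1 of the 18 (5.56%) was 2-fold or more higher, against 8.95% of all genes. The list had a median of 0.47 (level-adjusted 0.27). The highest was Bcap31, an ER protein cleaved by caspase-8, which read 6.73 and 8.11, and the lowest was the BCL2-binding co-chaperone Bag1, at -0.21. Ddit3, which encodes CHOP, is given because several of the genes above are its targets. It read 6.18 in 2RS30 and was 0.82 higher in 2RH30 (level-adjusted 0.56). Of 13 measured death receptors, ligands and adaptors, 1 (7.69%) was 2-fold or more higher and 2 (15.4%) lower, with a median of -0.22. Traf6, an adaptor of innate immune receptors, was the highest at 1.90 and Tnfrsf21, which encodes death receptor 6, the lowest of those not dim at -1.18.

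Lists nearer to the execution of apoptosis showed no common direction. Of 9 measured execution phase genes, 1 (11.1%) was 2-fold or more higher and 1 (11.1%) lower, against 11.5% and 9.62% of all genes. The list had a median of 0.19 (level-adjusted 0.05). Its extremes were the nuclear lamins Lmna, with 5.41 and 6.91, and Lmnb1, with 6.09 and 4.90. Of 7 other genes listed with the BCL2 family, Bcl10 among them, 0 were higher and 1 (14.3%) was lower by 2-fold or more. This was Bcl2l10, which read 6.49 in 2RS30 and 3.81 in 2RH30. Bcl2l12 was the highest of these that was not dim, at 0.71. Of the other caspases and IAPs only Birc5 and Birc7, at 0.47 and -0.83, were read here.

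**Figure D4:**
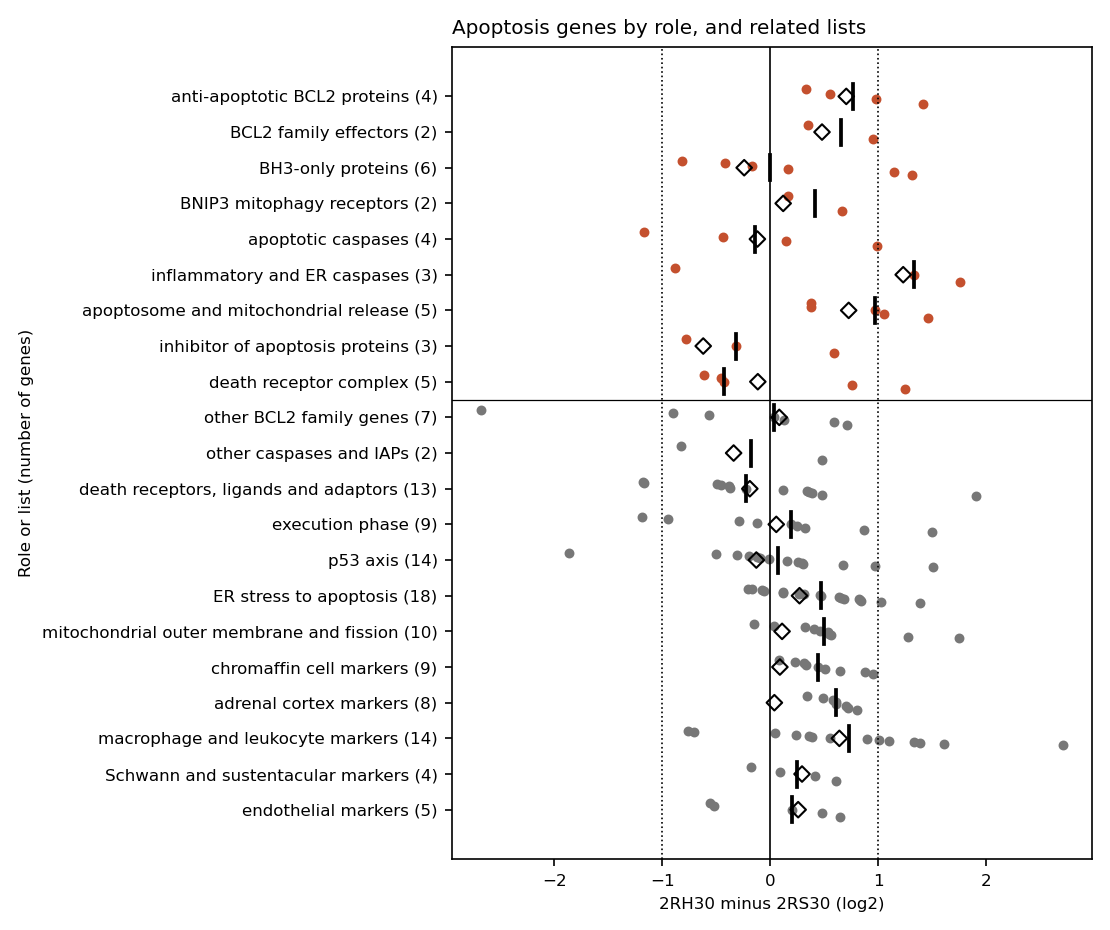
Difference 2RH30 minus 2RS30 (log2, horizontal axis) of each gene as a point, for the 9 roles of the apoptosis genes (red) and for related and cell type lists (grey), with the number of genes in brackets. Bars are medians as deposited, open diamonds are level-adjusted medians, and dotted lines mark 2-fold. The 4 anti-apoptotic BCL2 genes of the set lie to the right of 0, from 0.33 to 1.42, and the BH3-only genes lie on both sides.

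The label of the tissue was checked with marker genes. Chromaffin cell markers were above the array median in both pools and ranged from Scg2, at 5.88 in 2RS30 and 6.32 in 2RH30, to Th, at 11.45 and 11.96. In their difference they ran from Phox2a at 0.08 to Dbh at 0.95, and 9 of 9 measured lay above 0 in their difference, 5 of 9 when level-adjusted. Markers of the adrenal cortex read higher as a set, with Star at 11.81 and 12.51, so cortical cells were part of both pools. The cortex markers had a median level of 11.30 over both arrays, against 8.69 for the chromaffin cell markers. The part of cortical RNA in the apoptosis gene values was not tested. The 8 measured cortex markers had a median difference of 0.61 (level-adjusted 0.04), from Nr5a1 at 0.33 to Cyp11a1 at 0.80. The median was 0.25 over 4 Schwann and sustentacular markers, with Sox10 at 0.09 and Mbp at 0.61, and 0.20 over 5 endothelial markers, with Vwf at -0.52 and Flt1 at 0.65.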

How the data were processed

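Total RNA was isolated by the authors from the left adrenal medulla, pooled from 6 rats per group and hybridized to 1 array per group. The authors deposited 1 value per probe set and array, read as log2 from its range. Their submission names Affymetrix Expression Console, with no version, and the paper calls these values quantile-normalized, although the 2 arrays did not share a distribution (SD over probe sets 1.28 in 2RS30 and 1.57 in 2RH30, 5th percentile 3.67 and 3.16). For the published analysis, the methods give normalization by GCRMA in Partek. Whether the deposited values were summarized that way is not stated. Of 31099 probe sets, 57 controls were left out. Probe sets were named from the platform annotation, with symbols updated by gene number through RefSeq (GRCr8). A single gene was named for 20826, several for 436 and none for 9780, and 20758 of the 20826 matched.

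With 1 array per group no model was fitted, and the number of arrays limits the precision. A 2-fold threshold, that of the study, was used. The level adjustment was a lowess curve (fraction 0.3, 3 iterations). Only the level adjustment and the motif search were tested on simulated data. The simulated trend was a straight line, with noise smaller than the spread between probe sets of 1 gene on these arrays. Every measured member is named, and of each other list the highest and lowest gene that was not dim. Further genes were chosen after their values were seen. They are Ddit3, Th, Scg2, Star, Cd68, Ptprc, Bcl2a1, Bcl10, Mff, the Vdac genes, Cdkn1a and Mdm2. Also chosen so were the TNF and FAS signalling genes set beside Tradd and Fas. The members, roles and lists were chosen with earlier results of these data known. Alternatives were centring, quantile normalization, level adjustment, the mean over probe sets, leaving out probe sets that are dim or whose identifier marks a match to several transcripts, and other thresholds. Python 3.11.15, pandas 2.3.3, numpy 2.4.6, statsmodels 0.14.6 and matplotlib 3.10.9 were used.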

Additional observations from a re-analysis of the deposited data

How the results depend on the processing

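As deposited, 8 of the 34 apoptosis genes were 2-fold or more higher in 2RH30, 1 was lower and the median was 0.37. Centring on the array medians kept the same 9 genes (11.1% and 9.85% of all genes higher and lower). Quantile normalization kept them too (9.57% and 9.31% of all genes), with a median of 0.17, against 0.03 over all genes. Level adjustment gave 7 higher, 2 lower and a median of 0.16, and level adjustment with the mean over probe sets, added after the data were seen, 5 higher, 1 lower and 0.21 (7.92% and 7.35% of all genes higher and lower). The mean over probe sets alone gave 8 higher and 0 lower (9.43% and 8.75% of all genes). The 8 were not the same genes, since Mcl1 took the place of Apaf1, and Casp8 was at -0.77. Leaving out dim probe sets, which leaves 28 genes, gave a median of 0.48, against 0.26 over all genes. That filter lets a gene pass through its value on 1 array, so it depends in part on the difference itself. Without probe sets that may match several transcripts, 7 of 33 were higher and 1 lower (11.3% and 9.83% of all genes), and Bad had no reading. Other thresholds gave 15 higher and 5 lower at 1.5-fold, and 1 and 0 at 3-fold, by construction. Apaf1, 1.46 as deposited, was -0.20 as the mean over its probe sets and -0.13 when that mean was level-adjusted, because its probe sets have opposite signs. Of the 231 alternative values of single genes, 227 moved by less than 0.82, the SD between probe sets of 1 gene. This count says little about stability, because many of the values could hardly move. Centring shifted every gene by -0.01, and the mean over probe sets cannot change the 19 genes with 1 probe set. The limit is also wide enough for a change of sign, as in Bcl2l1, 0.33 as deposited and -0.05 when level-adjusted. No paired analysis was possible because only 1 array stands for each group. Leaving out a replicate could not be done for the same reason. The values carry no signal over background, and no detection limit can be given.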

Other observations

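Genes of the mitochondrial outer membrane and of mitochondrial fission and fusion, where BCL2 proteins act, were higher in 2RH30 as deposited in 9 of 10. The list had a median of 0.50 (level-adjusted 0.11, with 7 of 10 above 0). Of all genes, 56.1% lay above 0 as deposited and 51.2% when level-adjusted. In this list 20% were 2-fold or more higher, against 11.5% of all genes. Opa1, the fusion protein of the inner membrane that shapes cristae, read 4.92 in 2RS30 and 6.67 in 2RH30, for a difference of 1.75 (level-adjusted 1.60), and was 1 of 2 genes past 2-fold. The other was Mff, a fission receptor, which read 5.55 and 6.83 (level-adjusted difference 1.08). The outer membrane channels Vdac1, Vdac2 and Vdac3 differed by 0.57, 0.54 and 0.46, and by 0.08, 0.07 and 0.15 when level-adjusted. Mfn1, a fusion protein, was the only gene of this list below 0, at -0.15.

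Genes of the p53 axis, which drives several BH3-only genes after DNA damage, had 7 of 14 above 0 and 7 below, with a median of 0.07 (level-adjusted -0.13). Ccng1, a p53 target, read 5.40 and 6.91, a difference of 1.51 (level-adjusted 1.32). Perp, another p53 target, read 5.73 and 3.87, a difference of -1.86 (level-adjusted -1.67). Cdkn1a, the best known of the p53 targets, was dim and read 5.35 and 5.25, and Mdm2 read 6.74 and 6.24.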
